A study of Homo sapiens with 15 samples.

Results

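The regions described here were selected on where peaks were called. The peak lists of 15 ATAC-seq libraries were joined into regions wherever peaks overlapped by 1 bp or more, and regions seen in at least 2 libraries were kept. A region was a member when every one of the 3 WT and 6 rescue libraries, but none of the 6 KO libraries, had a peak there. Of 295008 regions, 927 (0.314%) met this rule. As background, 2.48% of all regions were lost in KO (a peak in all WT and no KO library), 0.910% were gained in rescue over KO (all rescue and no KO libraries), and the members are 12.7% of the 7308 lost regions. ATAC-seq uses the Tn5 transposase to insert adapters into accessible DNA, and the cells were RPTEC, which are human epithelial cells of the renal proximal tubule, immortalised with hTERT and kept under G418. The groups, of 3 libraries each, were WT, the SETD2 knockout clones KO1 and KO2, made with a guide against exon 3 of SETD2, and Rescue1 and Rescue2, single colonies of knockout cells that received full-length human SETD2 with a FLAG tag by lentivirus and were selected with blasticidin. The names of the peak lists trace both rescue clones to KO2, so the 6 rescue libraries are 2 clones of 1 parent, and nothing states that the 3 libraries of a clone came from separate cultures. P-values below therefore measure the spread between these libraries.

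SETD2 trimethylates lysine 36 of histone H3 over the bodies of transcribed genes, a mark that is known for limiting spurious initiation and for marking exons, and SETD2 is often lost in clear cell renal carcinoma. Loss of an ATAC-seq peak means that the signal at a site fell below the calling threshold, which also depends on the depth and background of the library. Many such sites are promoters or enhancers, which open where transcription factors bind. AP-1 (dimers of FOS and JUN proteins) opens many enhancers in epithelial cells, whereas ZEB and SNAI factors, the zinc finger repressors of epithelial genes that drive epithelial-to-mesenchymal transition (EMT), recognise an E-box that E proteins such as TCF3 also read.

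The libraries held from 197527 to 266011 peaks. Promoter peaks (within 1000 bp of a start site) were found at 14 to 15 of 16 kidney epithelial marker genes in every library and at none for HNF4A, and at 3 to 5 of 10 genes of other cell types, VWF and NPHS1 among them in every library. The lists hold no read counts, so depth is unknown, and fold enrichment is relative to the background of its own library. Strength is therefore given as a percentile rank, from 0 to 100, of the fold enrichment of a region among all regions that the same library occupied.

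To show what the members look like, the summit of 9 of them with 50 bp on either side is printed first. They were chosen after the values were seen and are in order of mean rank within each kind. The first 2 are the highest ranked with both the E-box CAGGTG and the AP-1 letters TGANTCA, the next 2 have 2 or more E-boxes, the following 3 are the next highest ranked with an E-box, and the last 2 are the strongest promoter members of protein-coding genes, which have neither. Sequences are from hg38, plus strand, 5′ to 3′, named by the gene with the nearest start site, with E-box and AP-1 letters of either strand in capitals.
SCGB2B2, chr19:34588382-34588482: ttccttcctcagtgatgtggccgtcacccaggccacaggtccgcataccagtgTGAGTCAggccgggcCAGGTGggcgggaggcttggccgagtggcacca
SMAD9, chr13:36871115-36871215: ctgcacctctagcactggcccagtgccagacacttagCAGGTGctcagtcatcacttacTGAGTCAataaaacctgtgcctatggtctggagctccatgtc
ENSG00000286538, chr19:29858140-29858240: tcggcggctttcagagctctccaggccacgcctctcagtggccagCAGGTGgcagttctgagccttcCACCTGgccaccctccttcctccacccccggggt
TMEM63A, chr1:225875585-225875685: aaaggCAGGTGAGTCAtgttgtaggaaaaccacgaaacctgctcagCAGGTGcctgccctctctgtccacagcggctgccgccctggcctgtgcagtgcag
LINC01022, chr7:158603631-158603731: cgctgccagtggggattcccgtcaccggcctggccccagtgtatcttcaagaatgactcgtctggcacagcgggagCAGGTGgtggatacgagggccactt
ENSG00000256875, chr12:132465554-132465654: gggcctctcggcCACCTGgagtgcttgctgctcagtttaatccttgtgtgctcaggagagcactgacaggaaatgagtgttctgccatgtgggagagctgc
MTMR8, chrX:64395405-64395505: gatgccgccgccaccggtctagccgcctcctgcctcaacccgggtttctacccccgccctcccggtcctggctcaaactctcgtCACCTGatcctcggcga
JAM3, chr11:134139985-134140085: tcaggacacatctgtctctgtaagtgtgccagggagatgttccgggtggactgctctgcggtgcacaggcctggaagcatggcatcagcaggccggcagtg
FAAH2, chrX:57286511-57286611: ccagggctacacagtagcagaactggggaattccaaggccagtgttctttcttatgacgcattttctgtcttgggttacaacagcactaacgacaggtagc

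In the window in TMEM63A, a gene of a membrane channel, an E-box and an AP-1 match overlap. The window in SMAD9, which encodes a signal transducer of the BMP pathway, holds 1 of each. Matches are descriptions of letters and not shown binding sites.

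The E-box CAGGTG, searched on both strands within 100 bp of the summit, had the highest ratio of members to all regions among 34 motifs (2.26). It was found in 331 of 927 members (35.7%, exact binomial 95% interval 32.6 to 38.9) and in 15.8% of all regions. The 3051 regions held by all WT and by no KO or rescue library, called lost regions that did not return, had it in 22%, regions held by all 15 libraries in 15.2%, and the 2413 regions held by all KO and no other libraries in 7.63%. AP-1 letters were in 344 members (37.1%, 34.0 to 40.3), against 30.0% of all regions, 34.2% of regions held by every library (inside the interval of members), 34.0% of regions held by KO alone and 11.9% of lost regions that did not return. Both were found together in 14.0% of members and 4.90% of all regions, and 41.2% of members and 59.1% of all regions had neither.

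**Figure D1:**
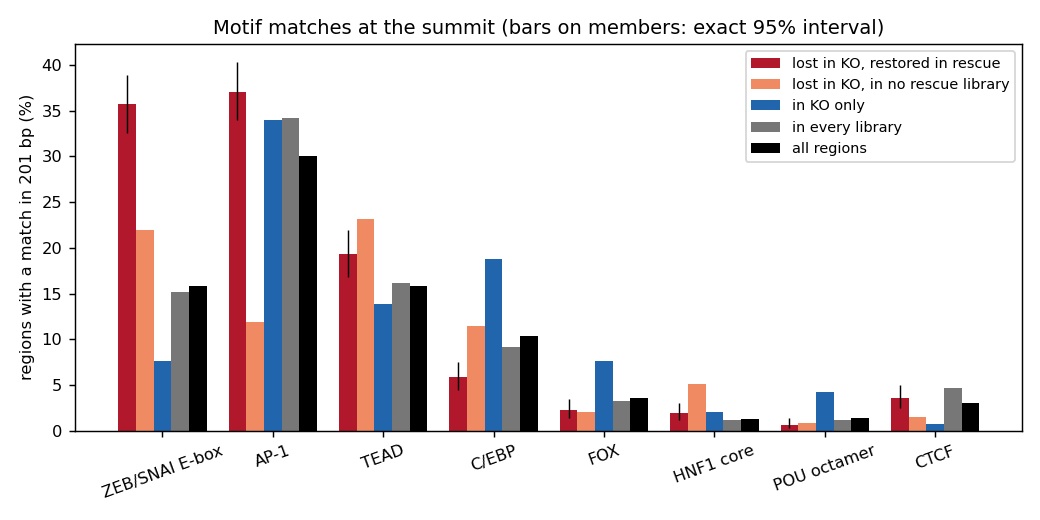
Share of regions with a match within 100 bp of the summit (vertical axis, percent) for 8 motifs in the 927 members, in 3 other sets and in all 295008 regions; black bars on members are exact 95% binomial intervals. Members had the E-box in 35.7% and AP-1 in 37.1%, while lost regions that did not return had 22% and 11.9%.

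A count of all words in the same members and windows, which is not independent of the motif search, also placed this E-box near the top. Of 2022 words of 6 letters present in at least 1% of regions, counting both strands as 1 word, 2 were more than 2 times as frequent in members as in all regions. They were CAGGTA (14.6% against 6.01%) and CAGGTG, and the 5 that followed, led by CCAGGT (26.5% against 13.5%), share letters with it. CAGGTG or CAGGTA was found in 45.8% of members and 21.0% of all regions. At least 2 copies of CAGGTG were in 52 members (5.61%), against 1.57% of all regions.

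Letters of several other factors were rarer in members than in regions held by KO alone. C/EBP letters (TTGCNNAA) were in 5.83% of members, 10.4% of all regions and 18.8% of regions held by KO alone. Forkhead letters (TGTTTAC) were in 2.27%, 3.61% and 7.58%, and the POU octamer ATGCAAAT in 6 members (0.647%), 1.40% and 4.19%. The HNF1 core GTTAATNAT, named for factors of kidney epithelium, was in 18 members (1.94%), 1.30% of all regions and 5.11% of lost regions that did not return. TEAD letters (CATTCC), read by partners of YAP, were in 19.3% of members and 15.8% of all regions, and CTCF letters in 3.56% and 3.03%. The interval of NF-kB (4.22 to 7.29%) includes the share of all regions, 5.61%.

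Along the window, both motifs were most frequent at the summit. E-box matches in members went from 21.6 per 1000 regions in the 20 bp that start 200 bp upstream to 60.4 in the 20 bp downstream of the summit. In regions held by every library the profile was flat, with 17.1 and 17.3 in the same steps. AP-1 matches peaked at 99.2 per 1000 members beside the summit, against 75 in regions held by every library and 28.8 in lost regions that did not return.

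**Figure D2:**
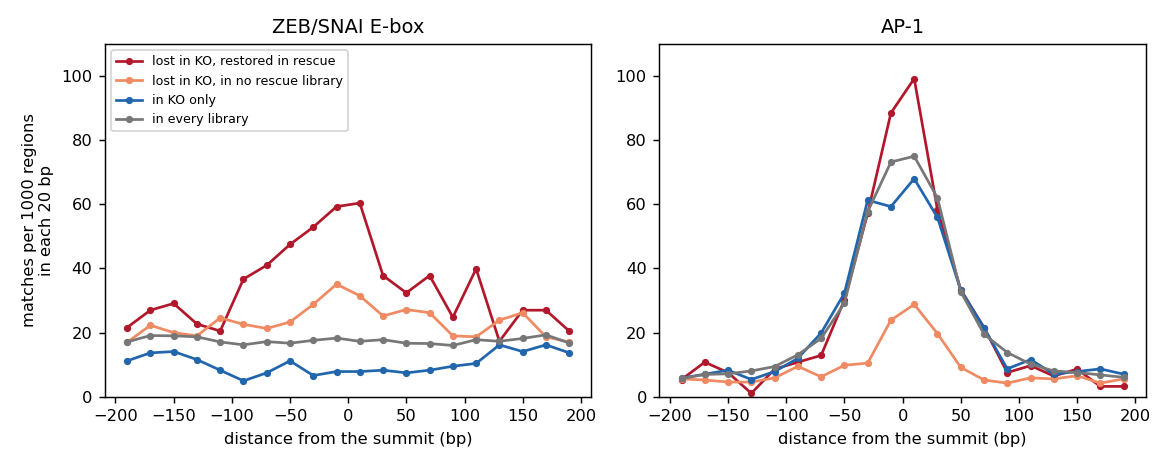
Matches per 1000 regions in steps of 20 bp (vertical axis) by distance from the summit (horizontal axis, bp) for the E-box (left) and AP-1 (right) in members and 3 other sets. E-box matches are centred in members, reaching 60.4, and flat in regions of every library; AP-1 matches are centred in all sets and lowest in lost regions that did not return.

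In each stratum examined the E-box was more frequent in members than in all regions. On chromosome 19, 29.2% of members and 20.9% of all regions had the E-box, and away from chromosome 19 and chromosome ends 37.6% and 15.3%. Members in promoters had it in 36% and members away from promoters in 35.7%, against 15.9% and 15.8% of all regions. With a GC content under 45% the shares were 21.7% of members and 9.18% of all regions, from 45 to 55% they were 39.4% and 18.6%, and above that 39.6% and 22.1%. The median percentile rank was 38.4 for members with and 41.8 for members without the E-box, and of the 12 strongest members 1 had it.

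Regions that WT held and KO lost were then ordered by how many of the 6 rescue libraries held a peak. The rule used this number, so the order is descriptive. E-box shares were 22% with none, 26.7, 31.3, 28.5, 35.4 and 37.0% with 1 to 5, and 35.7% with all 6 rescue libraries. They did not rise at each step, whereas AP-1 shares did, from 11.9% to 37.1%. The share on chromosome 19 went from 2.10% to 12.2% and that of HNF1 core letters from 5.11% to 1.94%. Regions 1 library away from the rule were 852 with a peak in all 9 WT and rescue libraries and 1 KO library, and 813 with 8 of the 9 and no KO library. Their E-box shares were 37.4% and 36.3%, beside 35.7% in members. Their AP-1 shares, 30.6% and 31.6%, were near the 30.0% of all regions. On chromosome 19 lay 6.22% and 7.87% of them, and within 5 Mb of chromosome ends 14.6% and 16.1%, below the 12.2% and 23.8% of members. A further 1757 regions had a peak in all 6 rescue, no KO and fewer than 3 WT libraries. AP-1 letters were in 38.3% of these, so the AP-1 share was not particular to members. The E-box was in 28.4%, and 6.26% lay on chromosome 19 and 17.1% near ends.

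**Figure D3:**
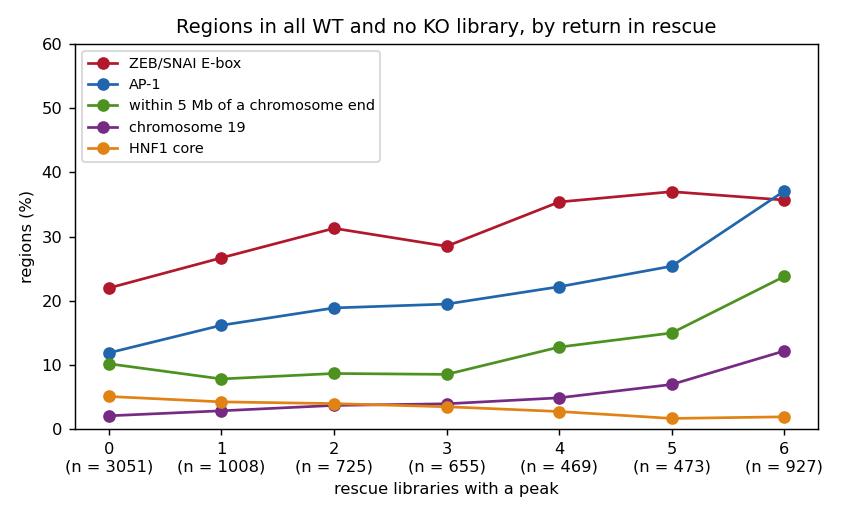
Regions with a peak in all WT and no KO library, by the number of rescue libraries with a peak (horizontal axis, number of regions below), and the percent of them with each property (vertical axis). The E-box share goes from 22% to 35.7% without rising at each step. AP-1 goes from 11.9% to 37.1%, chromosome 19 from 2.10% to 12.2% and the HNF1 core from 5.11% to 1.94%.

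Members were concentrated on chromosome 19, which holds most genes of Krüppel-associated box zinc finger repressors in clusters. It carried 113 members (12.2%, exact binomial 95% interval 10.2 to 14.5) and 2.34% of all regions, which is 1.63 members per 100 regions against 0.314 over the genome. Chromosome 20 followed with 50 members (0.689 per 100 regions), and chromosomes 3 and 6 had 31 and 30 (0.156 and 0.167). Within 5 Mb of a chromosome end lay 221 members (23.8%, 21.1 to 26.7) and 8.27% of all regions. Lost regions that did not return were at 2.10% on chromosome 19 and 10.2% near ends, and regions held by KO alone at 0.249% and 4.64%.

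**Figure D4:**
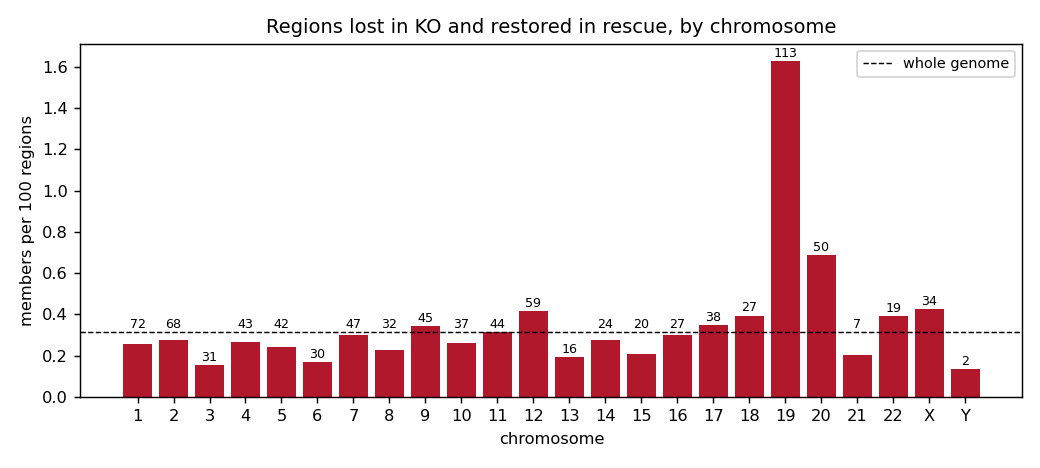
Members per 100 regions (vertical axis) on each chromosome, with the number of members above each bar and the genome-wide level as a dashed line. Chromosome 19, with 113 members and 1.63 per 100 regions, stands above chromosome 20 at 0.689 and all others.

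Zinc finger genes (names in ZNF, ZFP, ZSCAN and ZKSCAN) and other genes of chromosome 19 both held members. Of 566 zinc finger genes, 30 held a member in the body or within 5 kb (39 members of 2847 regions, 1.37%), whereas 577 of 20007 protein-coding genes did (0.348% of their regions). On chromosome 19, 22 of 261 zinc finger genes held 30 members (3.50% of their regions) and the 1215 other protein-coding genes there held 86 (1.21%). A member or region at several genes was counted once for each, so these are not counts of distinct members or regions. ZSCAN5A, a SCAN-domain zinc finger gene, held 5 members among 13 regions. One of them, 856 bp from a start site of EDDM13 inside ZSCAN5A, ranked at 13.7, 61.2 and 12.4 in WT and from 44.5 to 85.1 (median 77.9) in rescue libraries. The exon member of ZNF793, another zinc finger gene, was among the strongest: 97.1, 98.6 and 97.9 in WT, and 74.7 to 97.7 (median 90.4) in rescue.

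Members also lay in runs. Another member was found within 100 kb of 365 members (39.4%), a share that was 35.6% for the 3051 lost regions that did not return and 50.9% for the 2413 held by KO alone, sets that are larger and so denser. Of 2915 windows of 1 Mb with a region, 546 held a member, and the 26 with at least 5 members held 193 (20.8%).

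The window with most members was on chromosome 2, with 15 among 95 regions (15.8%) between 3145805 and 3667605. EIPR1, which encodes a protein of endosomal recycling, held 7 of its 26 regions as members. The member over an EIPR1 start site (chr2:3257239-3257596, 358 bp) ranked at 88.0, 76.5 and 87.0 in WT and from 82.4 to 97.0 (median 91.9) in rescue. The exon member (chr2:3189147-3189507) was at 60.3, 55.4 and 39.7 in WT and at 78.0 to 86.9 in rescue, where the groups do not overlap. The intergenic member 15897 bp from an EIPR1 start site was weak, at 23.6, 50.7 and 44.7 in WT and 5.24 to 44.5 in rescue. An intron of TRAPPC12, of a vesicle tethering complex, held 1 further member, introns of ALLC held 2, and 4 lay at or near lncRNA genes.

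Per region, windows on chromosome 1 (7 of 21 regions, 33.3%, 6 of them in NPHP4) and chromosome 19 (9 of 46, 19.6%) were denser. The next windows by number were on chromosome 19 (14 members of 148 regions, from 35068459 to 35963852) and chromosome 12 (12 of 126, from 132003925 to 132809665). On chromosome 19 they lay at genes of several kinds. DMKN and SBSN, which encode the epidermal secreted proteins dermokine and suprabasin, each had a promoter member. That of SBSN ranked at 38.3, 21.0 and 41.3 in WT and from 19 to 49.4 in rescue. NPHS1, which encodes nephrin of the podocyte slit diaphragm, had one at 67.3, 49.4 and 65.2 in WT and from 32.3 to 75.4 in rescue. It lies near an internal start site, and the NPHS1 promoter peak found in every library is at another start site of the gene. An intergenic member nearest to LINC01766 was the strongest there, at 94.5, 98.9 and 96.6 in WT and 75.5 to 93.9 in rescue. On chromosome 12 the members included promoters of FBRSL1, GALNT9 and GOLGA3, an exon of POLE, the catalytic subunit of DNA polymerase epsilon, and introns of EP400 and ANKLE2.

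Of single genes, TRAPPC9, another subunit of the vesicle tethering complex, held the most members, 11 of 92 regions, over 731 kb on chromosome 8. Its strongest, in an intron, was at 93.4, 84 and 94.1 in WT and from 84.4 to 95.3 in rescue. NPHP4, which encodes nephrocystin-4 of the ciliary transition zone, held 6 of only 14 regions. Its strongest was at 80.2, 78.4 and 67.7 in WT and 89.8 to 98.0 in rescue, without overlap. CDH4, which encodes R-cadherin, held 6 of 103. Its strongest member was at 89.8, 96.3 and 91.5 in WT, 35.3 to 35.6 in Rescue1 and 72.6 to 85.6 in Rescue2. Neither clone overlapped WT, and the clones did not overlap each other. EHMT1, a methyltransferase of lysine 9 of histone H3, KIF16B, a kinesin of endosomes, ATP9B, a membrane ATPase of the flippase family, and DTD1, which removes D-amino acids from tRNA, each held 5, and CAMSAP1, which binds microtubule minus ends, held 4. The 5 in DTD1 also lie in the readthrough gene ENSG00000284776 and are the same regions.

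Regions around members that were not members themselves also differed between the groups. This is a description, since the KO against WT contrast chose the members. Of 5714 other regions within 25 kb of a member, WT libraries held a peak in 65.6 ± 3.26% (SD, n = 3), KO libraries in 58.2 ± 4.16% (SD, n = 6) and rescue libraries in 72.7 ± 5.04% (SD, n = 6). Over all regions the KO share was above the WT share, with 60.2 ± 2.53%, 65.8 ± 4.61% and 67.2 ± 5.61%. Around members single KO libraries ranged from 53.5 to 65.5% and WT libraries from 63.6 to 69.4%, so the ranges overlapped. The means by clone were 55.3% in KO1 and 61.1% in KO2. Chromosome 19 without its members gave 67.1, 63.2 and 74.9% in WT, KO and rescue libraries. The KO value there was 59.6% in KO1 and 66.8% in KO2, so KO2 was near WT. Within a GC content of 45 to 55% WT, KO and rescue had 58.0, 54.7 and 70.3% on chromosome 19 and 59.4, 65.7 and 67.8% elsewhere. On chromosome 19 at this GC content KO1 had 49.9% and KO2 59.6%, so only KO1 lay below WT. The median GC of occupied regions was 48.3 to 48.8% in WT, 47.8 to 48.3% in KO and 48.3 to 48.8% in rescue libraries. Under 40% GC, members left out, WT, KO and rescue libraries held a peak in 49.2, 58.8 and 56.0% of regions. At 60% GC or more they held one in 80.0, 78.0 and 82.0%. The part of GC content in the loss of members was not tested.

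Most members lay away from promoters. Promoters held 136 members (14.7%, 12.5 to 17.1) and 16.2% of all regions. Exons held 5.39% and 5.16%, introns 54.2% and 48.5%, and intergenic sequence 25.8% and 30.2%. Away from promoters, members inside genes lay at a median of 0.497 of the gene length from the start and all regions at 0.490. Median GC was 50.7% in members and 47.8% in all regions, and 3.78% and 8.55% had at least 10 CpG sites within 100 bp of the summit.

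Of the promoter members, 103 had a protein-coding gene nearest. The strongest was at JAM3, a junctional adhesion molecule (chr11:134139702-134140278). It ranked at 87.0, 86.6 and 97.0 in WT and from 94.0 to 98.8 in rescue, and a second member lay in a JAM3 exon. Also on distal 11q, the member near the start of NCAPD3, a condensin II subunit, ranked at 80.2, 78.4 and 85.2 in WT and 77.6 to 95.7 in rescue. FAAH2, a fatty acid amide hydrolase, was at 92.2, 92.2 and 92.7 and at 83.4 to 93.2. MTMR8, of the myotubularin phosphatase family, was at 96.3, 87.2 and 95.6 in WT and 58.2 to 92.0 in rescue. TSGA10, a testis-expressed gene, was at 50, 6.11 and 41.3 in WT and 73.9 to 96.5 in rescue, without overlap. The other named promoters were those of EIPR1, the gamma-tubulin complex gene TUBGCP3, A1BG, the homologous recombination gene XRCC2 and RNF222.

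Members at genes of known groups were counted in the gene body and within 5 kb, again once for each gene. No member was found at 49 kidney transcription factor genes, 64 interferon response genes or 57 genes of NF-kB, cytokines and chemokines, which have 962, 430 and 483 regions. At the 0.348% of all protein-coding genes few members would fall in lists of this size, and whether these zeros differ from that rate was not tested. Of 64 proximal tubule transport and metabolism genes, 3 held 1 each: DPP4, a brush border peptidase, and the organic ion transporters SLC22A7 and SLC47A2. Of 52 adhesion, junction and polarity genes 2 held 1 each, among them the keratin gene KRT19. Of 44 EMT factor and mesenchymal genes KLF8 held 1, of 39 AP-1, CREB and MAF factor genes FOSL1 and BACH2 held 1 each, and of 63 WNT pathway genes LRP6 held 1, and of 56 TGF-beta and BMP pathway genes SMAD9 held 1. Members were 0.226% of the regions at adhesion genes and 0.417% at transport genes, beside 0.348% at all protein-coding genes. The shares were 0.136% at EMT, 0.346% at AP-1, CREB and MAF, 0.106% at WNT and 0.112% at TGF-beta and BMP genes. None of these 4 was above the background, and each rests on 1 or 2 members. Axon guidance genes (6 of 71, among them EPHA2, NEO1 and SLIT1), growth factor ligands and receptors (4 of 64, ERBB2, FGFR1, NRP2 and TGFA) and collagen, laminin and integrin genes (4 of 63, COL18A1, HSPG2, ITGA6 and LAMA5) had shares of regions of 0.366, 0.293 and 0.280%. Of 39 YAP, TEAD and Hippo genes WWTR1, which encodes the coactivator TAZ, held 1 (0.101% of their regions).

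Among 44 genes of renal carcinoma and H3K36 methylation, only NSD2, which dimethylates lysine 36, held a member, and it held 2 of 21 regions. Over the list this was 1 gene (2.27%) and 0.299% of 669 regions, beside 2.88% of protein-coding genes and 0.348% of their regions, so the list was not above the background. The intron member (chr4:1915614-1915912) ranked at 51.6, 43.3 and 38.7 in WT and from 32.1 to 59.5 (median 43.9) in rescue libraries. The other, near a start site (chr4:1918944-1919222), was at 32.7, 49.7 and 50.6 in WT and 50.1 to 81.8 (median 72.3) in rescue. WT and rescue overlapped at both.

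Members were of modest strength. The mean rank over the 9 WT and rescue libraries had a median of 40.9 (quartiles 29.2 and 55.1, range 0.852 to 97.6), against 65.2 for the 117977 regions that all 9 libraries held. It was above 90 for 16 members and under 10 for 52. Members were 268 bp wide in the median, all regions 244 bp, lost regions that did not return 178 bp and regions of every library 472 bp. A region spans all of its joined peaks, so its width depends in part on the number of libraries that hold it. That number differs between these sets by definition. The nearest peak of any KO library was 4.33 kb away in the median, and within 1 kb for 19.4% of members. Just outside the rule, in the regions with a peak in a single KO library, that peak had a median rank between 11.9 and 14.7, and the WT and rescue mean had a median of 38.3. Regions missing 1 WT or rescue library had 30.4. KO2 replicate 3 alone accounted for 415 of those 852 regions.

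The strongest member (chrX:2174671-2175167) lay between genes in the part of X that is shared with Y, 91770 bp from the nearest start site of DHRSX, which encodes a dehydrogenase. It ranked at 97.6, 96.1 and 92.3 in WT and from 97.0 to 99.9 in rescue. Another member (chrX:2261795-2262402), in a DHRSX intron, was at 93.1, 92.4 and 94.4 and at 93.8 to 98.1. The second strongest, between genes on chromosome 10 and nearest to LINC02641, was at 97.7, 97.4 and 97.4 in WT and 94.8 to 97.3 in rescue. These regions ranked among the strongest of each WT and rescue library and held no peak in a KO library.

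The rank of members was compared between WT and rescue. The rule is not independent of it: a peak had to be called in all 9 libraries, so lost regions that any rescue library held too weakly for a call are left out, and the comparison covers called regions only. In the median member the rank was 43.0, 35.8 and 37.9 in WT libraries, 41.6, 35.3 and 38.4 in Rescue1 and 51.3, 45.4 and 39.0 in Rescue2. The mean was 38.9 ± 3.70 (SD, n = 3) in WT and 41.8 ± 5.76 (SD, n = 6) in rescue, and the difference of 2.93 was within their spread (two-sided exact permutation p = 0.524, smallest possible 0.0238). With Rescue1 alone the difference was -0.481. Rescue2 lay 6.83 above Rescue1 (exact permutation p = 0.2, with 0.1 the smallest for 3 against 3). Over all regions held by the 9 libraries the same difference between rescue and WT was 2.41 (exact permutation p = 0.0952). Members had 164 ± 8.39 bp under peaks in WT (SD, n = 3) and 175 ± 16.9 bp in rescue (SD, n = 6; exact permutation p = 0.429).

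**Figure D5:**
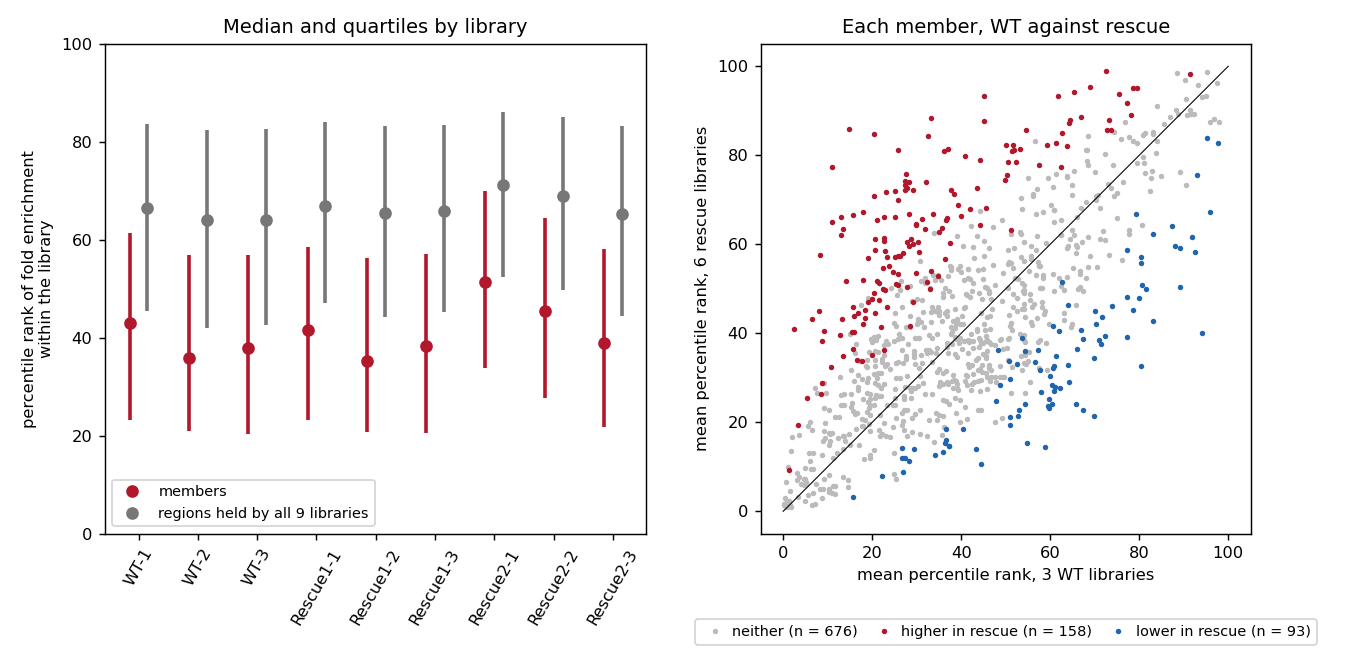
Left, median (point) and quartiles (line) of the percentile rank in each WT and rescue library, for members and for the 117977 regions held by all 9; member medians lie between 35.3 and 51.3. Right, each member by its mean rank in WT (horizontal) and rescue (vertical), with the 158 higher and 93 lower in rescue (limma, adjusted p under 0.05) in colour.

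Single members nevertheless changed rank between WT and rescue. With limma over all 117977 regions and Benjamini-Hochberg adjustment at 0.05, 158 members (17%) ranked higher and 93 (10.0%) lower in rescue. Of all regions tested, 15.8% ranked higher and 8.80% lower, so these shares are near the background. The balance of higher and lower depended on the ranking and the clone. With the 150000 strongest peaks of each library 115 ranked higher and 118 lower, and with ranks among the regions held by all 9 libraries 125 and 125. Rescue1 alone against WT gave 98 higher and 114 lower, and Rescue2 alone 130 and 42. The remaining 676 did not pass the test, which does not show that they were equal. The median difference was 2.12 in members and 0.46 in all regions tested.

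The largest rise was in an intron of DTD1 (chr20:18657497-18658034), which ranked at 20.7, 12.9 and 10.4 in WT, 91.8, 94.2 and 83.6 in Rescue1 and 81.0, 87.3 and 77.7 in Rescue2, without overlap (difference 71.3 ± 3.7 SE, adjusted p = 3.45e-05, limma). A region in an intron of the tumour suppressor gene WWOX followed, at 7.75, 12.9 and 12.4 in WT and between 60.1 and 85.7 in rescue (66.4 ± 4.6 SE). An intergenic region on chromosome 7, one in an intron of PIGG, of glycosylphosphatidylinositol synthesis, and one in an intron of ENSG00000286192, 32186 bp from a start site of the spindle checkpoint gene MAD1L1 rose by 64.4, 55.2 and 55.2.

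The largest fall was in an intron of NOMO1, of an endoplasmic reticulum complex, at 91.7, 93.3 and 97.1 in WT, 35.6, 35.3 and 10.6 in Rescue1 and 61.0, 53 and 44.5 in Rescue2 (difference -54.0 ± 6.2 SE, adjusted p = 0.000807, limma). NOMO1 has near-identical copies, so reads there are uncertain. The promoter member of PXN, which encodes paxillin of focal adhesions, fell from 55.4, 62.4 and 58.5 to between 5.85 and 25.5 (-44.3 ± 2.7 SE, adjusted p = 6.59e-05, limma). Members in an intron of the carbohydrate kinase gene FGGY and between genes nearest to ATP5MJ and CAHM fell by 48.5, 47.8 and 44.6, and these 3 hold the E-box. Of the members that rose 26.6% held it, of those that fell 41.9%, and of the others 37.0%.

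The rescue clones differed from each other in a part of the members. In the same fit 38 members (4.10%) ranked higher and 4 (0.431%) lower in Rescue2 than in Rescue1, beside 1.42% and 0.248% of all regions tested.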

How the data were processed

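ATAC-seq peak lists of 15 RPTEC libraries were used, 3 for WT and 3 for each KO and rescue clone, grouped by the titles. The authors aligned reads to hg38 with BWA (0.7.17 in the submitters' processing notes, another version in the methods) and called peaks per library with MACS2 2.2.7.1; DiffBind 2.14.0 is also named. Read filters and the peak-calling settings are not given in the sources used here. The series text speaks of duplicates, the labels and methods of 3 libraries, and the number of cells given differs between labels and methods.

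Each list deposited by the authors holds intervals, a whole-number score, the summit's fold enrichment over background (a ratio), the −log10 p and −log10 q, and the summit. These compare a peak with its own library, so fold enrichment was turned into a percentile rank within a library. A region without a peak is below the calling threshold, not closed. No read counts were used and depth is unknown; intervals on shares cover counting of regions only, and regions are not independent.

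Members and gene lists were chosen with earlier results of these data known. Regions were annotated with GENCODE release 44 (protein-coding and lncRNA genes); 34 motifs were searched on both strands within 100 bp of the summit of the peak with the highest −log10 p. Named regions were the 12 strongest members, the 10 strongest promoter members of protein-coding genes, the 5 largest rises and falls from WT to rescue, members of the 3 windows of 1 Mb with most members, the genes with most members, and listed genes with at least 2 members. Sequence of chromosome 8 was not printed, and some named regions and genes that these rules select are not reported here.

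Rescue was compared with WT by two-sided exact permutation of library labels (84 arrangements) and by limma 3.58.1 (R 4.3.3) on ranks over 117977 regions with WT, Rescue1 and Rescue2 as groups, without a block, Benjamini-Hochberg adjusted, tested on simulated data. Rank deviations from group means correlated from -0.02 to 0.08 between same-numbered libraries (9 pairs) and from -0.11 to 0.05 between others (18 pairs). Correlations this low do not show whether numbers pair libraries, and results with a replicate block are given below. Other steps used Python 3.11.15 with scipy 1.17.1.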

Additional observations from a re-analysis of the deposited data

Results flagged for a closer look

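Of 6 measures examined over the 6 KO or 6 rescue libraries, 1 had a library far from the others, and chance gives about 1 in 20. KO2 replicate 3 was the only KO library with a peak in 415 regions that all 9 WT and rescue libraries held, and the next KO library, KO2 replicate 1, was so in 162. KO2 replicate 3 also has the longest list of the KO libraries (255339 peaks; the others have 204531 to 221347). The part of list length in this count was not tested.

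Members differed between the rescue clones by a test of the difference itself. In limma, 38 members ranked higher and 4 lower in Rescue2 than in Rescue1 (adjusted p under 0.05). Chosen after these values were seen, the largest in each direction were a member in an intron of GP6-AS1, 5123 bp from a start site of the platelet collagen receptor gene GP6, at 60.5, 20.7 and 35.5 in Rescue1 and 97.2, 96.2 and 93.8 in Rescue2 (difference 56.8 ± 8.7 SE, adjusted p = 0.0237), and an intergenic member nearest to LINC01242, at 90.8, 71.5 and 70.0 in Rescue1 and 29.6, 25.3 and 10.4 in Rescue2 (-55.7 ± 10.0 SE, adjusted p = 0.0398). Rescue1 lists held 208726 to 229434 peaks and Rescue2 lists 209372 to 266011, and the part of list length in the ranks was not tested.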

How the results depend on the processing

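Depth is unknown, and the rescue values rest on 2 clones of 1 parent. The number of members was 254 when each peak had to cover at least 50% of the region, 1779 with at most 1 KO library allowed and 1740 with at least 8 of the 9 WT and rescue libraries. Leaving out a library gave 939 to 1343 members, the most without KO2 replicate 3. This removes a condition of the rule, so a count above 927 was largely fixed in advance. The promoter share was 22.9% within 2500 bp and 14.1 to 15.4% without single libraries. The share of members near another was 32.1% with 150000 peaks per library, 27.6% with 50% cover, 30.0% within 50 kb, 59.0% within 500 kb, and 37.5 to 41.3% without single libraries. Within 50 and 200 bp of the summit AP-1 letters were in 30.0 and 41.3% and, as alternatives chosen after seeing the data, the E-box in 22.9 and 48.5%; without single libraries the shares were 34.7 to 37.9% and 34.8 to 36.9%. Also chosen after seeing the data, the chromosome 19 share was 9.35% with 150000 peaks, 9.33% with at most 1 KO library and 10.1 to 12.2% without single libraries (lowest without KO2 replicate 3). The share near chromosome ends was 20.3, 19.4 and, with at least 8 of 9 libraries, 20.2%, and 21.9 to 23.7% without single libraries. The rank difference between rescue and WT turned to -0.257 with 150000 peaks, -0.481 with Rescue1 alone and -0.907 when ranked among the regions of all 9 libraries, and lay between 0.637 (without Rescue2 replicate 1) and 6.37 (without WT replicate 1) in turn; exact permutation p was 0.143 to 0.929 throughout. The width difference was -1.0 bp with Rescue1 alone and 4.70 to 16.7 bp without single libraries (exact permutation p 0.143 to 1.0). Members ranked higher in rescue numbered 98 with Rescue1 alone and 133 to 203 without single libraries, those ranked lower 42 with Rescue2 alone and 67 to 132. The causes were not tested. With the replicate block the rank difference was 2.93 and the width difference 10.7 bp (each exact permutation p = 0.444 within blocks), and 148 members ranked higher and 84 lower, so that the block changed no count by over 1.5 times; 4 of 9 libraries correlated best with their own number.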
